A study of Saccharomyces cerevisiae with 12 samples.

Results

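MnSOD-deficient EG110 and wild-type EG103 cells of *Saccharomyces cerevisiae* were compared after growth of both strains with aspirin, on 6 of the 12 arrays of the study. The 6 arrays were taken by their labels, 3 biological replicates of aspirin-treated EG110 cells and 3 of aspirin-treated EG103 cells. EG103 is a *MATα* strain that carries the marker alleles *ura3-52* and *trp1-289a*, further *his3Δ1* and *leu2-3 112*, and is *GAL+*, and EG110 is EG103 with the mitochondrial manganese superoxide dismutase gene replaced by a tryptophan marker (*sod2Δ::TRP1*). All 6 cultures grew for 48 h at 28 °C and 250 rpm in ethanol medium (YPE) with 15 mM aspirin, set to pH 5.5 with Trizma base. Each genotype was represented by 1 line, so a difference caused by the loss of *SOD2* and one caused by any other divergence between the lines cannot be told apart. The remaining 6 arrays, 3 of each strain grown without aspirin, served to show where the difference between the strains was itself different with the drug.

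Manganese superoxide dismutase converts superoxide that leaks from the respiratory chain of the mitochondrial matrix into hydrogen peroxide. Superoxide damages exposed iron-sulfur clusters, so yeast lacking the enzyme is known for poor growth on respired carbon sources and for sensitivity to oxygen. On ethanol, yeast makes acetyl-CoA in the cytosol by alcohol dehydrogenase, aldehyde dehydrogenase and acetyl-CoA synthetase, and moves the acetyl unit into mitochondria as acetylcarnitine or through the glyoxylate cycle. The comparison asks how the transcripts of the 2 strains differ when both face aspirin under these conditions.

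Transcripts were read on Affymetrix Yeast Genome 2.0 arrays as log2 values, and 5716 probe sets that name an *S. cerevisiae* gene were tested. The array medians lay between 11.16 and 11.18 for aspirin-treated EG110 and between 11.36 and 11.38 for aspirin-treated EG103, a shift of -0.20 between the strains. Each array was therefore centred on its median, and every level below is a log2 value relative to that median. Differences are log2 values of EG110 minus EG103, so that 1 is a 2-fold higher level in EG110. Called means an adjusted *P* below 0.05 (limma, Benjamini-Hochberg) together with a fold of at least 1.5. A group mean is described as near background when it is below the 95th percentile of those probe sets that name no *S. cerevisiae* gene, which lay at -5.88 in EG110 and -5.93 in EG103. Cultures were measured in bulk, so less transcript in every cell and fewer cells with the transcript cannot be told apart.

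*SOD2* separated the strains as their labels state. Its level was -6.36, -6.38 and -6.45 in the 3 aspirin-treated EG110 cultures and 2.99, 2.95 and 2.81 in the 3 EG103 cultures. The EG110 values were all near background, which makes *SOD2* at least 445-fold lower there (difference -9.31, standard error 0.11, adjusted *P* = 4.87e-14). The selection marker *TRP1* was not found among the tested probe sets. Of the other marker genes of the background, *HIS3* was lower in EG110 (-0.79), *LEU2* was lower (-0.76) and *URA3* was higher (0.66), the last losing its call without the first EG103 aspirin array (0.54), without centring (0.46) and after quantile normalization (0.55). The α-specific genes *STE3*, the receptor of a-factor, and *SAG1*, α-agglutinin, were both detected well above background in both strains. *STE3* was 1.43 higher in EG110, and *SAG1* differed by -0.60, losing its call without the second EG110 aspirin array (-0.57) or without the first (-0.56) or second (-0.50) EG103 aspirin array. *SAG1* was also not called after quantile normalization. Of 7 measured a-specific genes 3 were lower in EG110 and 0 higher (5 and 0 without centring), with a median of -0.47. Among these 7, 0 were near background in both strains, so detection alone does not tell the mating type. Their median level was -3.26 in EG110 and -2.59 in EG103. The 2 measured α-specific genes had medians of 0.46 and 0.05, and *MFALPHA1* and *MFALPHA2* were not found among the tested probe sets.

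With aspirin, 1267 of 5716 probe sets (22.2%) differed by this rule between the strains, 685 higher in EG110 (12%) and 582 lower (10.2%). The counts in the gene lists below are to be read against these shares. In all 1267 the 3 EG110 arrays lay on one side of the 3 EG103 arrays, against 76.8% of all tested probe sets. At a fold of at least 4, 39 probe sets were higher and 40 were lower in EG110. The median standard deviation between replicates was 0.054 in EG110 and 0.075 in EG103, and the median absolute difference between the strains was 0.30. Without centring, 402 probe sets were higher and 1033 were lower, and 77.7% of the 1267 calls were shared. When probe sets were divided by mean level into 4 equal classes, 29.7% of the lowest class were called, then 17.8%, 18.4% and, in the highest class, 22.7%. Calls were spread over the genome, with chromosome medians between -0.05 and 0.05. The largest arm median was 0.32, on the left arm of chromosome VIII (45 probe sets), which does not hold *SOD2*.

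Genes for transporters were among the largest differences in both directions. *PHO89*, the sodium-coupled phosphate transporter of the plasma membrane, had levels of -2.73, -2.91 and -3.02 in EG110 and 1.84, 1.93 and 2.18 in EG103. *ADY2*, an acetate transporter, had levels of -2.84, -3.18 and -2.83 in EG110 and 1.52, 1.72 and 2.16 in EG103. Both genes were far lower in every EG110 culture, by -4.87 (standard error 0.28, adjusted *P* = 3.92e-08) and by -4.75 (standard error 0.16, adjusted *P* = 4.49e-10). In the opposite direction, *HXT4*, a high-affinity glucose transporter, reached 2.30, 2.38 and 2.50 in EG110 and -2.01, -2.01 and -2.09 in EG103. The groups did not overlap, and the difference of 4.43 (standard error 0.10, adjusted *P* = 7.21e-11) was the second largest rise among probe sets that name 1 gene. *ANS1*, which encodes a putative cell wall protein, showed the largest, with 2.20, 2.36 and 1.86 in EG110 against -3.48, -3.59 and -3.02 in EG103 (difference 5.51).

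**Figure D1:**
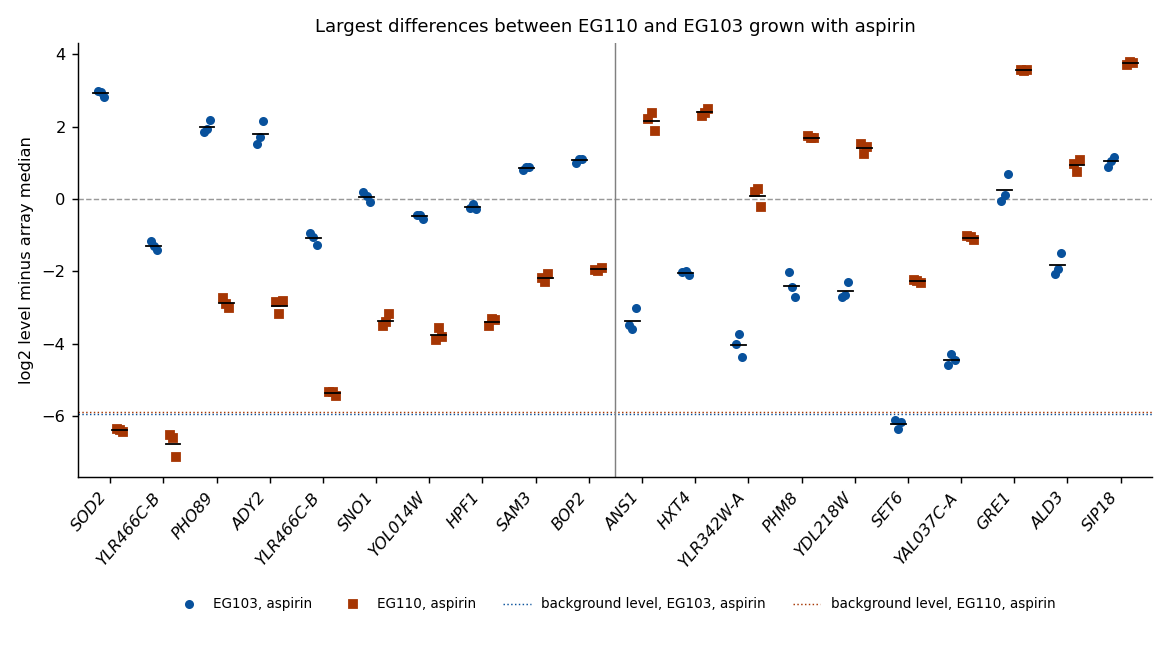
Log2 level minus the array median (vertical axis) for the 10 probe sets with the largest lower (left) and the 10 with the largest higher (right) difference in EG110 among those that name 1 gene, with 1 point per aspirin-treated culture, 3 per strain, a bar at the mean and dotted lines at the background level. The groups are apart for each probe set, and *SOD2*, 1 of the 2 *YLR466C-B* probe sets and, in EG103, *SET6* lie below background.

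Other transcripts at the lower end were *SNO1* (-3.43), which acts in vitamin B6 synthesis, *HPF1* (-3.18), a cell wall mannoprotein, *SAM3* (-3.03), the permease of S-adenosylmethionine, and *BOP2* (-3.02), whose function is not known. *YLR466C-B* was lower by -4.29 in 1 probe set, and by at least 24.1-fold in the other, whose EG110 mean was near background. *YOL014W* was lower by -3.28. At the upper end stood *PHM8* (4.09), a phosphatase gene induced by phosphate limitation, *YLR342W-A* (4.12), *YDL218W* (3.95), *YAL037C-A* (3.37), and *GRE1* (3.30) and *SIP18* (2.71), which encode stress-induced hydrophilins. *ALD3*, a stress-induced cytosolic aldehyde dehydrogenase, was 2.76 higher. *SET6*, a SET-domain gene, was near background in EG103 and at least 12.6-fold higher in EG110.

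For 13 of these 20 largest differences the strain difference with aspirin was itself called as different from that without, and for the other 7 it was not. Without aspirin 1219 probe sets (21.3%) were called between the strains, 754 higher in EG110 (13.2%) and 465 lower (8.14%), and 714 were called in the same direction in both media, 56.4% of the calls with aspirin and 58.6% of those without. *ANS1* differed by 5.51 with aspirin and 5.35 without, *GRE1* by 3.30 and 3.66, and *HPF1* by -3.18 and -3.12. The test of the difference itself, the strain difference with aspirin minus that without, was called for 671 probe sets (11.7%), and for 371 of the 1267 probe sets called with aspirin (29.3%). Of the 531 probe sets called with aspirin alone 237 had a called change of the strain difference, as had 159 of the 483 called without aspirin alone and all 22 called in opposite directions.

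**Figure D2:**
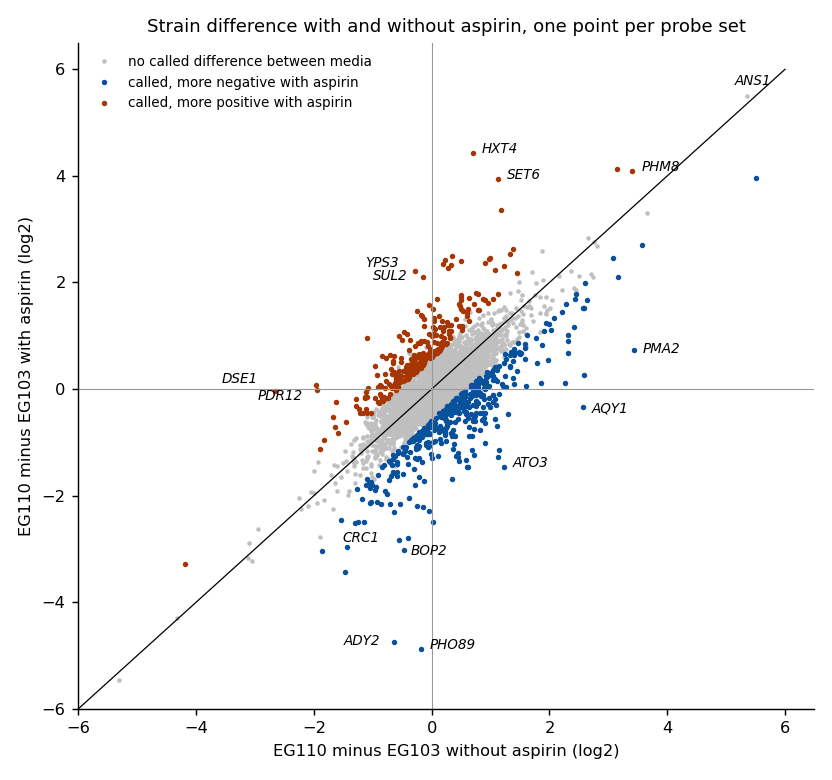
Strain difference (EG110 minus EG103, log2) with aspirin (vertical) against that without aspirin (horizontal) for the tested probe sets other than *SOD2*, with the line of equality. Blue and red points are the 671 probe sets whose strain difference changed between media, with *PHO89*, *ADY2* and *HXT4* farthest from the line.

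*PHO89* and *ADY2* illustrate a difference that was present with aspirin and small without it. In untreated cultures *PHO89* differed by -0.18 and *ADY2* by -0.65, which makes the change between media -4.69 (adjusted *P* = 7.13e-06) and -4.11 (adjusted *P* = 3.34e-07). With aspirin *PHO89* changed by -5.07 in EG110 and by -0.38 in EG103, values that share the aspirin arrays with the strain difference. *HXT4* differed by 0.71 without aspirin, a change between media of 3.72 (adjusted *P* = 8.73e-08).

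Several genes for acetyl-CoA and its transport were lower in aspirin-treated EG110 than in EG103. These include 8 genes that the study followed (*ADH2*, *ACS1*, *CAT2*, *YAT2*, *CRC1*, *AGP2*, *CIT2*, *SFC1*). The study picked them for their response to aspirin in EG110, on arrays used here as well, so their direction is not independent evidence. In the carnitine shuttle, 4 of 5 measured genes were lower and 0 were higher, and the list median was -2.15, against 0.01 over all tested probe sets. *YAT2*, a cytosolic carnitine acetyltransferase, had levels of -0.16, -0.27 and 0.18 in EG110 and 2.95, 2.87 and 2.82 in EG103. *CRC1*, the mitochondrial inner membrane carrier of acetylcarnitine, had -0.07, -0.35 and -0.07 against 2.75, 2.65 and 2.58. Every EG110 culture lay far under every EG103 culture for both genes, with differences of -2.96 (standard error 0.13, adjusted *P* = 3.62e-09) and -2.82 (standard error 0.091, adjusted *P* = 4.12e-10).

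*CAT2*, the main carnitine acetyltransferase of mitochondria and peroxisomes, was lower by -2.15 (0.42, 0.24 and 0.58 in EG110, 2.63, 2.60 and 2.47 in EG103). *AGP2*, a plasma membrane transporter needed for carnitine uptake, was lower by -1.63 (0.31, 0.05 and 0.40 in EG110, 1.92, 1.92 and 1.79 in EG103). The fifth member, *YAT1*, the outer mitochondrial membrane acetyltransferase, was near background in both strains, so no fold is given. Without aspirin *YAT2*, *CAT2* and *AGP2* were also lower in EG110, by -1.45, -0.72 and -0.69, and *CRC1* differed by -0.56 and was not called. The strain difference was larger with the drug for each, with the change between media running from -2.26 for *CRC1* to -0.94 for *AGP2*.

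Of 13 genes listed for the route from ethanol to acetyl-CoA, 2 were higher, 2 were lower and 9 were not called (2 and 3 without centring). The 15.4% in each direction was near the shares of all tested probe sets (12% and 10.2%). *ADH2*, the alcohol dehydrogenase that oxidises ethanol, had levels of 1.5, 1.58 and 1.62 in EG110 and 2.41, 2.39 and 2.57 in EG103 (difference -0.89, adjusted *P* = 1.04e-06). *ACS1*, the acetyl-CoA synthetase used on non-fermentable carbon, had 1.6, 1.48 and 1.65 against 2.66, 2.66 and 2.79 (difference -1.12, adjusted *P* = 1.92e-08). Without aspirin *ADH2* was 0.64 higher in EG110, and *ACS1* differed by 0.36 and was not called. Their change between media was -1.53 and -1.49. The other acetyl-CoA synthetase, *ACS2*, differed by -0.31 and the main mitochondrial aldehyde dehydrogenase, *ALD4*, by 0.01, and neither was called. The stress-induced cytosolic aldehyde dehydrogenases *ALD3* (2.76) and *ALD2* (0.82) were the 2 higher members.

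**Figure D3:**
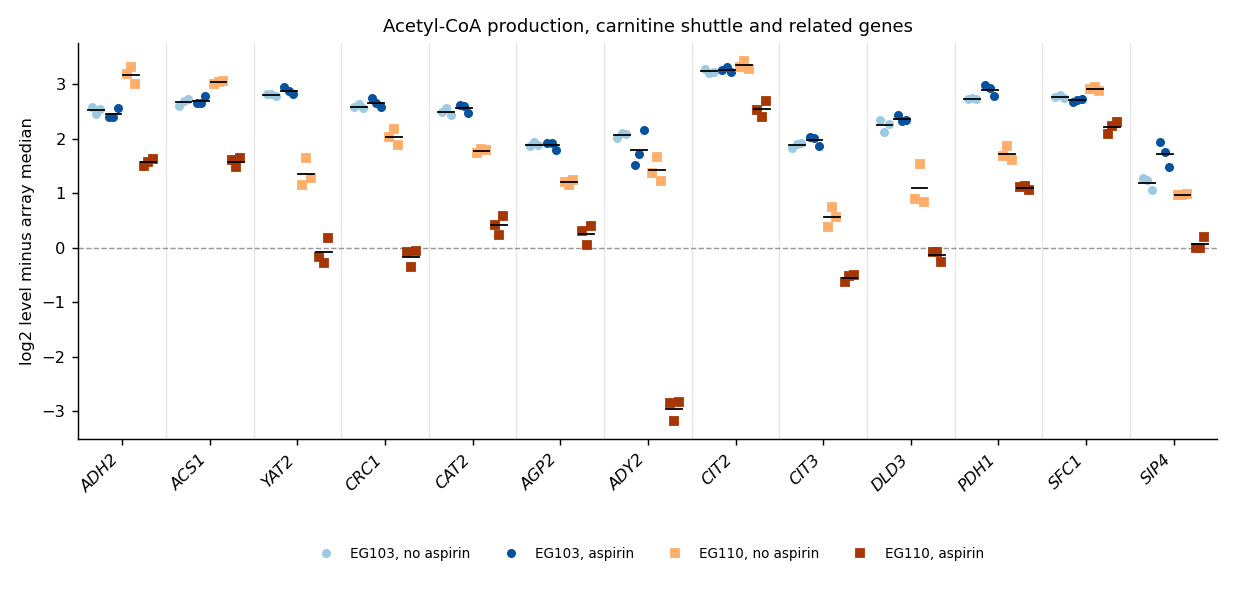
Log2 level minus the array median (vertical axis) in each of the 12 cultures for acetyl-CoA, carnitine and related genes, with 3 points per group and a bar at the mean. The aspirin-treated EG110 cultures (dark squares) are the lowest group for each gene, from *ADY2* (difference from aspirin-treated EG103 -4.75) to *SFC1* (-0.50).

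Among 13 genes of the glyoxylate cycle, gluconeogenesis and carboxylate uptake, 1 was higher, 2 were lower (*ADY2* and *CIT2*) and 10 were not called, with a median of -0.50. These were 7.69% and 15.4%, near the 12% and 10.2% of all tested probe sets. *CIT2*, the peroxisomal citrate synthase, was lower by -0.72, with 2.53, 2.41 and 2.69 in EG110 and 3.27, 3.32 and 3.22 in EG103. *ICL1* (isocitrate lyase), *MLS1* (malate synthase) and *PCK1* (phosphoenolpyruvate carboxykinase) each differed by -0.54, and *SFC1*, the succinate-fumarate carrier, by -0.50. These 4 did not reach a fold of 1.5, but all 4 were called lower without centring, where the list held 7 lower and 0 higher genes. *FBP1*, fructose-1,6-bisphosphatase, was the higher member (0.60). It lost its call without centring (0.40), and without the second EG110 (0.55), the first EG103 (0.50) or the second EG103 (0.55) aspirin array. In 6 of the 13 genes the strain difference was more negative with aspirin by the test between media, and in 0 more positive. Of all tested probe sets 6.96% and 4.78% were. The 6 include *CIT2* and *SFC1*, which the study picked for their response to aspirin in EG110 on these arrays, so these members are not independent evidence.

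Further enzymes of citrate and propionate metabolism were lower in EG110. *CIT3*, a mitochondrial citrate and methylcitrate synthase, was lower by -2.52 and *PDH1*, the methylcitrate dehydratase, by -1.80. *DLD3*, a cytosolic enzyme of D-2-hydroxyglutarate and D-lactate and a known target of retrograde signalling from mitochondria to the nucleus, was lower by -2.50. Its levels were -0.08, -0.07 and -0.25 in EG110 and 2.43, 2.32 and 2.35 in EG103. Of 11 retrograde genes, 3 were lower and 0 were higher, and *CIT1*, *ACO1*, *IDH1* and *IDH2* differed by -0.01, 0.08, 0.22 and 0.14, with 0 of the 4 called.

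Few other genes of the respiratory machinery were called. Of 21 TCA cycle genes 2 were called, both lower (*CIT3* and *PDX1*, the E3-binding subunit of pyruvate dehydrogenase, -0.83), and of 23 nuclear respiratory chain genes 2 were called, both lower. Those were *NDE2*, an external NADH dehydrogenase (-1.01), and *COX5B*, the hypoxic form of a cytochrome oxidase subunit (-0.95). *NDE2* was higher in EG110 without aspirin (0.91), a change between media of -1.92. Of 17 ATP synthase genes and 32 proteasome genes 0 were called, with medians of 0.18 and -0.11. Their members ranged from -0.003 to 0.43 and from -0.47 to 0.24. Genes of the mitochondrial genome were not found among the tested probe sets.

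Of 19 regulators of carbon source use 2 were higher and 2 were lower (10.5% each, near the shares of all tested probe sets, and 1 and 3 without centring). *SIP4*, an activator of gluconeogenic genes, was lower by -1.66 and *ADR1*, an activator of *ADH2* and of peroxisomal genes, by -0.92. *MIG2*, a zinc finger repressor that acts with Mig1 in glucose repression, had levels of 0.02, 0.07 and -0.11 in EG110 and -2.53, -2.26 and -2.29 in EG103. Each EG110 culture lay above each EG103 culture (difference 2.35, adjusted *P* = 3.03e-06), whereas the difference was 0.19 without aspirin and was not called. *MTH1*, a regulator of hexose transporter repression, was 0.71 higher and fell below the fold threshold without centring (0.51).

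Hexose transporters were higher in 6 of 20 measured probe sets and lower in 0 (5 and 1 without centring), although the list median was 0.11. In untreated cultures 10 were higher and 1 lower, with a median of 0.56. The strain difference was more positive with aspirin in 3 of the 20 and more negative in 6. Besides *HXT4*, the low-affinity transporter *HXT3* had 0.79, 0.98 and 0.90 in EG110 and -0.56, -0.59 and -0.62 in EG103, a difference of 1.48 (adjusted *P* = 3.43e-09). *HXT8* (1.6), *HXT10* (1.22), *HXT9* (0.90) and *HXT14* (0.67) were the other 4, members whose role in uptake is less clear. *HXT7*, whose probe set lists several genes, differed by 0.50 and the ethanol-grown form *HXT5* by -0.08, and neither was called. For *HXT4*, *HXT3* and *HXT8* the strain difference was larger with aspirin, and for *HXT10* and *HXT14* it was smaller (1.99 and 2.31 without). Near-identical *HXT* copies can share probes, so these members are not fully independent.

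Iron genes were called more often higher than lower. Of 26 genes of the iron regulon, which is transcribed when yeast lacks iron, 8 were higher in aspirin-treated EG110, 1 was lower and 17 were not called (5 higher and 3 lower without centring), while without aspirin 3 were higher and 3 lower. *ARN1*, a siderophore transporter, had levels of 1.98, 2.12 and 1.92 in EG110 and -0.39, -0.25 and -0.45 in EG103 (difference 2.37, adjusted *P* = 2.45e-08). *TIS11*, an RNA-binding protein that lowers iron-using transcripts, had 0.95, 1.01 and 0.63 against -0.89, -0.64 and -0.27 (difference 1.46). *FIT1*, a cell wall mannoprotein that retains siderophores, had 0.72, 1.12 and 0.78 against -0.31, -0.12 and -0.88 (difference 1.31). The groups did not overlap for the 3 genes. In EG103 they were lower with aspirin than without, by -0.69, -1.01 and -1.11, and in EG110 they differed by 0.77, -0.08 and 0.34, values that share arrays with the strain difference. The lower member was *FET4* (-0.95), a low-affinity iron transporter. In 8 of the 26 genes the strain difference was more positive with aspirin, and in 0 more negative, against 4.78% and 6.96% of all tested probe sets.

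Of 17 manganese, zinc and copper genes, 3 were higher, 5 were lower and 9 were not called. *SMF1*, the plasma membrane manganese transporter, was 1.53 higher in EG110 (1.62, 1.63 and 1.69 against 0.23, 0.34 and -0.21). *SMF2*, the manganese transporter of internal vesicles that supplies Sod2 in wild-type cells, was lower by -1.16 (-0.42, -0.33 and -0.39 against 0.73, 0.89 and 0.74). *MTM1*, a mitochondrial carrier needed for manganese loading of Sod2, was 0.74 higher, and was not called without centring (0.55). These 3 differed by 1.43, -1.01 and 0.64 without aspirin, and for 0 of the 3 was a change between media called. The zinc transporter *ZRT1* was lower by -1.05 and the metallothionein *CRS5* was 0.87 higher.

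Defence against superoxide and peroxide, apart from *SOD2*, was mostly higher or not called. Of 30 genes, 9 were higher, 2 were lower (*SOD2* among them) and 19 were not called (7 higher and 2 lower without centring), with a median of 0.28. In untreated cultures 13 were higher and 2 lower, with a median of 0.44. By the test between media, the strain difference was more positive with aspirin in 1 of the 30 and more negative in 4. *SRX1*, sulfiredoxin, which repairs overoxidised peroxiredoxins, had levels of 0.40, 0.34 and 0.45 in EG110 and -1.10, -1.38 and -1.36 in EG103 (difference 1.68, adjusted *P* = 1.7e-08). *GPX1*, a phospholipid hydroperoxide glutathione peroxidase, was 1.49 higher, *CTT1*, cytosolic catalase, 1.40 and *GTT2*, a glutathione transferase, 1.33. *TSA2*, *TRX3*, *GPX2*, *MXR1* and *GSH1* made up the 9 with 1.01 to 0.66. *SOD1*, the cytosolic copper-zinc enzyme, differed by 0.41 and was not called. *DOT5*, a nuclear thiol peroxidase, was lower by -0.85. Of the 9, *SRX1* alone had a more positive and *TSA2* alone a more negative strain difference with aspirin by the test between media. In the aryl alcohol dehydrogenase family, oxidoreductases known to respond to oxidants, 5 of 8 probe sets were higher (62.5%) and 0 lower (3 and 1 without centring), led by *AAD10* (1.48).

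Sulfate assimilation split by transporter. *SUL2* and *SUL1* encode the high-affinity sulfate permeases. *SUL2* had levels of 0.66, 0.57 and 0.48 in EG110 and -1.62, -1.35 and -1.63 in EG103, whereas *SUL1* had -3.64, -3.67 and -4.28 against -1.70, -1.42 and -1.53. The paralogs thus stood in opposite directions, at 2.10 (adjusted *P* = 2.96e-07) and -2.31 (adjusted *P* = 0.000114), and both changed between media, by 2.24 and by -1.68. The change for *SUL1* had an adjusted *P* of 0.0238, and of 0.06 without the third EG110 aspirin array (-1.47) and 0.0513 without the second EG103 one (-1.61). *MET3*, ATP sulfurylase, was 1.59 higher and *MET5*, sulfite reductase, 0.86 higher. Of 27 sulfur and methionine genes 6 were higher and 4 were lower (3 and 5 without centring). In 8 the strain difference was more positive with aspirin and in 3 more negative, against 4.78% and 6.96% of all tested probe sets.

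Phosphate genes were also called in both directions, with 2 of 21 higher and 6 lower. Together with *PHO89*, *SPL2*, a regulator of low-affinity phosphate uptake, was lower by -2.28 (-3.92, -3.80 and -3.73 against -1.81, -1.54 and -1.23), and differed by -0.04 without aspirin. *PHO3*, a thiamine-repressed acid phosphatase, was lower by -2.77 and *PHO5*, the phosphate-repressed one, by -0.81. *PHO84*, the main high-affinity phosphate transporter, had -0.34, -0.56 and -0.69 against -1.45, -1.13 and -1.40, and its difference of 0.80 did not pass the test (adjusted *P* = 0.0589).

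**Figure D4:**
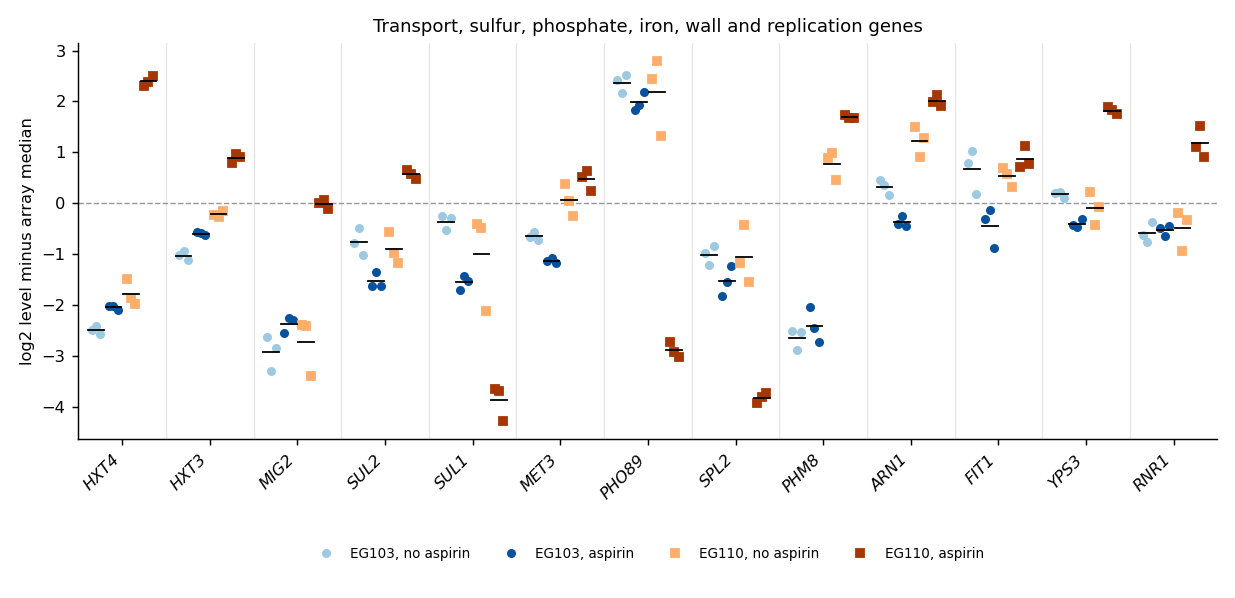
Log2 level minus the array median (vertical axis) in each of the 12 cultures for hexose, sulfur, phosphate, iron, cell wall and replication genes, with 3 points per group and a bar at the mean. The aspirin-treated EG110 cultures (dark squares) lie apart from aspirin-treated EG103 (dark circles) for each gene, above for *HXT4* (4.43) and *SUL2* (2.10), below for *PHO89* (-4.87) and *SUL1* (-2.31).

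Ribosomal protein genes were higher in aspirin-treated EG110. Of 149 probe sets of cytosolic ribosomal proteins, 101 were higher (67.8%) and 0 were lower, with a median of 0.72. The direction held under both other scalings (median 0.52 with 62 higher and 0 lower without centring, 0.61 with 77 higher and 0 lower after quantile normalization). *RPS28B*, a small subunit protein, had 1.37, 1.54 and 1.6 in EG110 and 0.09, -0.15 and -0.48 in EG103 (difference 1.69). *RPS9B*, *RPL22B* and *RPS14B* were higher by 1.65, 1.55 and 1.43. Without aspirin the median was 0.73 with 107 probe sets higher, and a change between media was called in 3. Leaving this family out of all tested probe sets left 584 higher and 582 lower. In 23 of the 149 probe sets several genes are listed, and paralogous copies share sequence, so members are not independent. Ribosome biogenesis genes were higher in 6 of 30 and lower in 0 (3 and 0 without centring), with *NSR1*, a nucleolar protein, at 1.56. Of 66 mitochondrial ribosomal proteins 0 were higher and 3 were lower (*MRPL37*, *MRPL25* and *MRP20*, -0.68 to -0.66), and without centring 0 and 8.

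DNA replication genes were higher in 9 of 23 and lower in 0 (5 and 2 without centring). *RNR1*, the large subunit of ribonucleotide reductase, had 1.10, 1.52 and 0.91 in EG110 and -0.48, -0.64 and -0.44 in EG103, a difference of 1.70 (adjusted *P* = 8.5e-06). *POL12*, a subunit of DNA polymerase α, was 1.11 higher, *POL30*, the sliding clamp, 1.03 and *PRI2*, a primase subunit, 0.98. Without aspirin *RNR1* differed by 0.09 and *POL30* by -0.05. In 8 of the 23 genes the strain difference was more positive with the drug and in 1 more negative, against 4.78% and 6.96% of all tested probe sets. Genes of daughter cell separation were higher in 3 of 11, lower in 2 and not called in 6 with aspirin (1 higher and 3 lower without centring). By the test between media, the strain difference was more positive with aspirin in 6 of the 11 and more negative in 0. *DSE1*, a daughter-specific gene, differed by -2.66 without aspirin and by -0.04 with it, where the groups overlapped. *SCW11*, a glucanase of the cell wall, was 0.99 higher with aspirin and differed by -0.56 without it, and *DSE4*, another glucanase, was 0.63 higher with it and -0.84 without it, the former losing its call without the second EG103 aspirin array (0.56).

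Cell wall genes were higher in 6 of 24 and lower in 0 (4 and 3 without centring, 4 and 2 after quantile normalization). *YPS3*, a yapsin protease anchored to the membrane, had levels of 1.89, 1.83 and 1.75 in EG110 and -0.43, -0.46 and -0.30 in EG103 (difference 2.22, adjusted *P* = 2.6e-08), and differed by -0.28 without aspirin. *PIR3*, a cross-linked wall protein, was 2.31 higher, *PIR1* 1.31 and *SLT2*, the MAP kinase of the cell wall integrity pathway, 1.09. Among 26 probe sets for weak acid and drug export 7 were higher and 3 were lower (6 and 3 without centring). These were 26.9% and 11.5%, against 12% and 10.2% of all tested probe sets. The lowest value of this list was for *AZR1*, whose EG110 mean was near background (-6.80 against -5.62 in EG103), so that only a fold of at least 1.2 can be given. *TPO2*, a polyamine exporter, had 2.42, 2.35 and 2.37 against 0.07, 0.02 and -0.25 (difference 2.44), and its paralog *TPO3* was higher by 1.81 in a probe set that lists several genes and by 1.45 in its own. *PDR12*, the exporter of carboxylate anions, was not called with aspirin (2.74, 2.67 and 2.83 against 2.99, 2.87 and 2.12, difference 0.09), although it was lower in EG110 by -1.96 without it. The change between media was itself called (2.04, adjusted *P* = 0.000146). *PMA2*, a minor plasma membrane proton pump, was 3.43 higher without aspirin and 0.72 higher with it, the latter not called without centring (0.53).

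Amino acid and nitrogen genes were mostly lower where called. Of 20 arginine, leucine, isoleucine and valine genes 7 were lower and 1 higher, and of 25 lysine, histidine, tryptophan and aromatic genes 8 were lower and 0 higher (13 and 0 without centring). *ARG4*, argininosuccinate lyase, had -0.15, -0.12 and -0.20 in EG110 and 1.83, 1.80 and 1.79 in EG103 (difference -1.96, adjusted *P* = 4.05e-10). *LEU4*, α-isopropylmalate synthase, was lower by -1.09, while its paralog *LEU9* was 1.03 higher. *LYS1*, saccharopine dehydrogenase, was lower by -1.42, and so was *ARO9*, an aromatic aminotransferase, by -1.42. Both strains carry mutant *leu2* and *his3* alleles, and EG110 carries a tryptophan marker that EG103 does not, which cannot be told apart from the loss of *SOD2*. Of 18 allantoin and nitrogen uptake genes 3 were higher and 5 lower (1 and 6 without centring), with *GAP1*, the general amino acid permease, at 0.16, -0.69 and -1.06 against 1.11, 1.19 and 1.49 (difference -1.79) and *PUT4*, the proline permease, at -1.68.

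Stationary phase and stress genes diverged. *SNZ1*, the partner of *SNO1* in vitamin B6 synthesis, was lower by -2.20 and *SPG4* by -2.21, whereas *SPG1* was 2.12 higher beside the hydrophilins. Of 12 such probe sets 5 were higher, 4 were lower and 3 were not called (3 higher and 4 lower without centring). *SNO1* and *SNZ1*, which are neighbouring genes, had levels of -3.53, -3.40 and -3.19, and of 0.21, 0.23 and 0.35, in EG110. In EG103 they had 0.19, 0.07 and -0.09, and 2.54, 2.47 and 2.39. Without aspirin the strain differences were -1.47 and -0.25. Hypoxic genes were lower in 7 of 20 and higher in 4 (8 and 2 without centring). Those lower included *ANB1*, the hypoxic translation factor eIF5A (-2.05), *TIR3*, a wall mannoprotein (-1.34), *AUS1*, a sterol uptake transporter (-1.10), and *HEM13*, coproporphyrinogen oxidase (-1.07). *OLE1*, the fatty acid desaturase, and its activator *MGA2* were 0.84 and 0.82 higher.

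**Figure D5:**
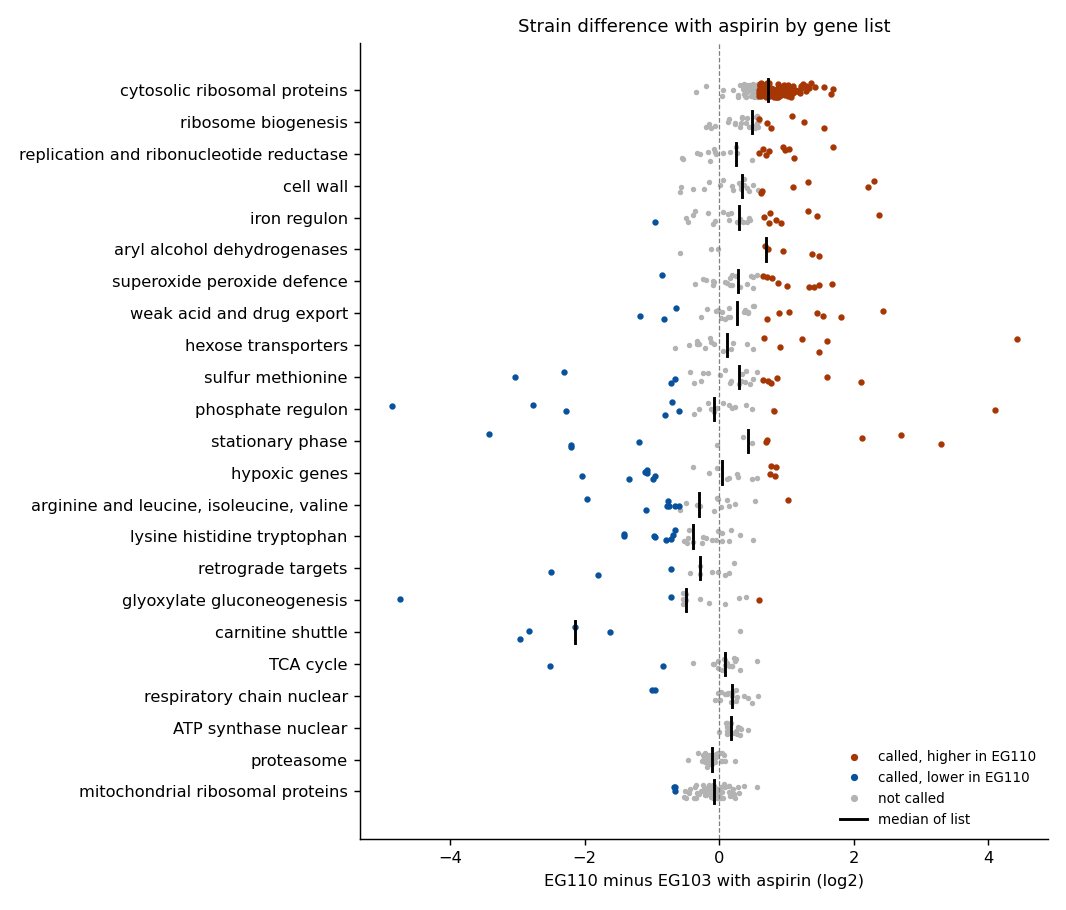
Strain difference with aspirin (EG110 minus EG103, log2, horizontal axis) for each member of 23 gene lists other than *SOD2*, with called members in colour and the list median as a bar. The cytosolic ribosomal proteins lie mostly above 0 (median 0.72), the carnitine genes below (median -2.15), and the ATP synthase and proteasome members close to 0.

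In carbon storage and glycerol metabolism, *GSY1*, a glycogen synthase, was lower by -1.91 and *GLC3*, the branching enzyme, by -0.70, the 2 called of 15 reserve carbohydrate genes. *DAK2* and *DAK1*, dihydroxyacetone kinases, were 2.41 and 1.14 higher, and *HOR2*, a glycerol phosphatase, 1.20. Of 12 glycerol genes 3 were higher, 2 were lower (lowest value -0.83) and 7 were not called. *PYK2*, the minor pyruvate kinase, was lower by -1.92 and *PDC6*, a minor pyruvate decarboxylase, 2.16 higher. Peroxisomal β-oxidation genes were higher in 5 of 15 and lower in 1 (3 and 4 without centring), led by *POT1*, the thiolase (1.6), while *ECI1*, an enoyl-CoA isomerase, was lower by -0.83. Of 25 ergosterol genes 3 were higher and 3 lower (12% each, near the shares of all tested probe sets, and 1 and 7 without centring), with *ERG3*, the C-5 desaturase, at 1.20 and *UPC2*, the sterol-responsive activator, at -0.73. *SSQ1*, the chaperone of iron-sulfur cluster assembly, was 1.22 higher and *YAH1*, the mitochondrial ferredoxin, lower by -0.95, and 14 of the 17 genes of that list were not called.

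Next to *SOD2* on chromosome VIII, 4 of the 9 tested neighbours within 5 annotated genes on either side were called. The share over all tested probe sets was 22.2%, and 9 genes are too few to set against it. *YHR007C-A*, the adjacent gene on one side, was lower by -1.88 (and by -1.27 without aspirin). *TDA3*, the adjacent one on the other side, was lower by -0.67 (and by -0.41 without aspirin). *RPL27A* was 0.72 and *DIA4* 0.98 higher (0.81 and 1.08 without aspirin), while *TIM10*, *STP2*, *ERG11*, *VPS29* and *ARD1* were not called. The value of *RPL27A* equals the median of the cytosolic ribosomal proteins (0.72). Any part of the replaced locus in these values was not tested.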

How the data were processed

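The authors hybridized RNA of each culture to Affymetrix Yeast Genome 2.0 arrays and made the deposited log2 values by the robust multi-array average (RMA) in AltAnalyze 2.0.8.1. Whether the strains were normalized together is not given in the sources used here. A further 8 columns hold comparisons that the authors computed between aspirin and no aspirin (fold changes and *P*-values), and these were not used. Of 10928 probe sets, 213 controls and 4999 without an *S. cerevisiae* gene were left out, and 140 of the 5716 tested list several genes. Each of the 12 arrays was centred on the median of its tested probe sets and fitted with limma 3.58.1 in R 4.3.3 (4 groups, 8 residual degrees of freedom), with two-sided *P*-values adjusted over all 5716. The fit was checked on simulated data. An exact permutation test of 3 arrays against 3 cannot go below *P* = 0.1, and the number of arrays limits the precision. Groups and replicates came from the labels, which call the samples biological replicates.

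Named genes were *SOD2* and *TRP1*, the 8 genes of the study, the 10 called probe sets of 1 gene with the largest higher and the 10 with the largest lower difference among those whose groups do not overlap, up to 4 called members of largest absolute difference in each of 43 gene lists, and the 5 largest called changes between media in each direction. Other list members are given as members of their list, and the neighbours of *SOD2* by position. Members and lists were chosen with earlier results of these data known. Names were matched through the R64 annotation, and 14 of 690 listed symbols were not found. Alternatives were no centring, quantile normalization, a fit of 6 arrays, a replicate block, trended and robust shrinkage, a filter on low levels, probe sets with 1 gene, other fold thresholds, the methods' t-test and leaving out arrays.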

Additional observations from a re-analysis of the deposited data

Results flagged for a closer look

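The difference between the strains was tested for a change between media (the strain difference with aspirin minus that without, limma, Benjamini-Hochberg), and the values below are those called among the genes chosen by the rule for named genes and the other genes given in the report. A negative value means that EG110 stood lower against EG103 with aspirin than without, and a positive value that it stood higher. Groups of 3 arrays were too small for a test of single arrays that lie apart.

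Among transporters and nutrient genes the more negative changes were *PHO89* (-4.69), *ADY2* (-4.11), *AQY1*, an aquaporin (-2.91), *PMA2* (-2.70), *ATO3*, a putative ammonium exporter (-2.69), *SPL2* (-2.24), *PUT4* (-2.03), *SUL1* (-1.68), *GAP1* (-1.51), *SAM3* (-1.17), *AUS1* (-0.87), *HXT10* (-0.77), *HXT14* (-1.63) and *HXT5* (-0.81). *AQY1* was not called with aspirin (-0.35) and was 2.57 higher in EG110 without it, while *ATO3* was lower by -1.47 with aspirin and 1.22 higher without it. The more positive changes of such genes were *HXT4* (3.72), *SUL2* (2.24), *MIG2* (2.16), *PDR12* (2.04), *MET5* (1.09), *ARN1* (1.47), *TPO2* (1.47), *FIT1* (1.44), *HXT8* (1.13), *TPO3* in the probe set that lists several genes (1.05), *TIS11* (0.93), *MET3* (0.88), *PHM8* (0.68), *HXT3* (0.68) and *MTH1* (0.65).

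In carbon metabolism the changes were negative for *CRC1* (-2.26), *NDE2* (-1.92), *ADH2* (-1.53), *YAT2* (-1.52), *ACS1* (-1.49), *CAT2* (-1.44), *SIP4* (-1.44), *DLD3* (-1.34), *CIT3* (-1.21), *PYK2* (-1.12), *ECI1* (-1.06), *ALD2* (-1.05), *AGP2* (-0.94), *CIT2* (-0.83), *PDH1* (-0.79), *GAL10* (-0.74), *POT1* (-0.69), *GLC3* (-0.69), *COX5B* (-0.65), *SFC1* (-0.63), *ICL1* (-0.76), *PCK1* (-0.75) and *ACS2* (-0.62). They were positive for *DAK2* (1.91), *HOR2* (0.92) and *IDH1* (0.60). *ADH2*, *ACS1*, *ACS2*, *CIT2*, *ICL1*, *PCK1*, *IDH1*, *NDE2*, *ECI1* and *SFC1* had strain differences of opposite sign in the 2 media after centring. For *CIT2* (0.10) and *SFC1* (0.14) the difference without aspirin was smaller than the shift of -0.22 between the untreated array medians. Without centring both genes were therefore lower in EG110 in both media. For *PCK1* (0.21), *ICL1* (0.22) and *ECI1* (0.23) it was about as large as that shift, so their sign without aspirin rests on the centring.

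Amino acid genes had negative changes, with *ARG4* at -1.21, *LEU4* at -0.84, *ILV2* at -0.81, *LEU2* at -0.63, *TRP4* at -0.63 and *ARO10* at -0.60, and so had *URA3* (-0.84). Stationary phase and hypoxic genes did too, with *SPG4* at -2.06, *SNO1* at -1.96, *SNZ1* at -1.96, *TIR3* at -1.81, *ANB1* at -1.66 and *SIP18* at -0.85. The mating genes were *SAG1* (-1.17), *MFA2* (-1.01), *AGA1* (-0.81), *PRM4* (-0.71) and *MFA1* (-0.61).

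Replication, division and wall genes had positive changes, with *DSE1* at 2.63, *YPS3* at 2.49, *RNR1* at 1.61, *SCW11* at 1.55, *DSE4* at 1.47, *POL30* at 1.09, *PIR3* at 1.07, *SLT2* at 0.76, *PRI2* at 0.67 and *POL12* at 0.60. Of the remaining genes *YAL037C-A* (2.18), *YLR342W-A* (0.98), *YOL014W* (0.92), *RPS28B* (0.82) and *SRX1* (0.77) had positive changes, and *BOP2* (-2.55), *YDL218W* (-1.56), *TSA2* (-1.30), *DOT5* (-0.76), *YHR007C-A* (-0.60) and *MRP20* (-0.60) negative ones. The fitted change for *SET6* (2.81) rests on EG103 means near background in both media, so its size is not known.

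Some of these calls were lost when 1 aspirin array was left out. That for *PHM8* (adjusted *P* = 0.048) was lost without any of 5 of the 6, with values from 0.53 to 0.69, and that for *PRI2* without any of 4, with values from 0.56 to 0.65. *URA3* lost its call without the second EG110 array (-0.82), the third EG110 array (-0.81) or the third EG103 array (-0.64), *MTH1* without the third EG110 array (0.62), and *SFC1* without the first EG110 array (-0.57). *COX5B* (-0.52) and *MRP20* (-0.54) lost theirs without the third EG103 array, *MFA1* without it (-0.52) or without the second EG110 array (-0.55), *POL12* without the second EG103 array (0.58) or the third EG103 array (0.56), and *ARO10* without the first array of EG110 (-0.54) or of EG103 (-0.57). *SUL1* lost its call without the third EG110 array (-1.47) or the second EG103 array (-1.61). *ACS2* lost it without the first EG103 array (-0.58) or the second EG103 array (-0.58), and *IDH1* without the second EG110 array (0.58) or the third EG103 array (0.49). *YHR007C-A* (adjusted *P* = 0.0395) lost it without any of 4 aspirin arrays, with values from -0.57 to -0.50, as deposited (-0.58), after quantile normalization (-0.40) and with the replicate block (adjusted *P* = 0.0651).

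Of the 83 changes of genes chosen by the rule, 16, 17 and 7 lost their call without replicate 1, 2 or 3 of every group. Without replicate 3 *PHM8* was at 0.32, *MTH1* at 0.33, *HOR2* at 0.58, *RPS28B* at 0.54 and *HXT10* at -0.57. Further genes that lost their call only in such fits were *FIT1* (1.6), *TIS11* (0.85), *YLR342W-A* (1.04), *YOL014W* (1.00), *POT1* (-0.66), *GAL10* (-0.80) and *TRP4* (-0.63) without replicate 1, and *GAP1* (-1.27), *HXT8* (1.20), *HXT3* (0.56), *MET3* (0.78) and *LEU2* (-0.53) without replicate 2.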

How the results depend on the processing

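With aspirin, 1267 probe sets were called, and the count was 843 without the 25% of lowest mean level (453 higher), 3926 without a fold threshold (2006 higher, 1920 lower) and 448 at a fold of at least 2 (235 higher, 213 lower). As deposited, without centring, 402 were higher and 1033 lower, so that 28% of the calls were higher against 54.1%, and after quantile normalization 51.1% of 1236 were. Without aspirin the corresponding counts were 760 (469 higher, 291 lower), 3868 (2092 and 1776) and 387 (253 and 134), and as deposited 426 higher and 993 lower. Changes between media numbered 404 (173 more positive, 231 more negative), 1923 (835 and 1088) and 211 (75 and 136). Leaving out arrays gave 1220 to 1300 calls with aspirin (672 to 706 higher, 548 to 594 lower), 1193 to 1284 without (734 to 811 higher, 459 to 479 lower) and 585 to 716 changes between media (229 to 282 positive, 356 to 434 negative). Of the 146 named probe sets called with aspirin, 141 were called in all 9 such fits, and *SSB1* joined those given in the report by losing its call without replicate 2 of every group (0.58). *DSE1*, which was not called with aspirin (-0.04), ranged from -0.1085 to 0.0364 when arrays were left out and turned positive without the first EG103 aspirin array (0.0085) and without replicate 1 of every group (0.0364), and the cause was not tested. Of 149 named probe sets 15 lost their call as deposited and 8 after quantile normalization, and *SFC1* gained one in both (-0.70 and -0.63). Those lost as deposited lay close to the fold threshold, from 0.40 for *FBP1* to 0.58 for *NOP1*. The replicate number did not pair the strains (correlations of same-numbered aspirin arrays -0.196, -0.091 and -0.121). Between media, same-numbered arrays of 1 strain correlated at 0.229, 0.142 and 0.343 in EG110 and at 0.017, 0.485 and 0.450 in EG103. The fit with the replicate block called 1266 with aspirin, 1220 without and 672 changes, and altered no call of a gene chosen by the rule for named genes. That block is common to both strains, so a pairing of media within each strain was not tested. The 6 aspirin arrays alone gave 1269, trended and robust shrinkage 1267, probe sets with 1 gene 1215 and the methods' t-test after adjustment 1261. Promoter motif shares and their window alternative were not run, because no sequence table was used here.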
